A study of Sus scrofa with 12 samples.

Results

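The genes described here encode the sperm calcium channel CatSper and the potassium, proton and proton-exchange proteins that act beside it. They were set by function, as a list of 10 gene symbols, with earlier results of these data known. All 10 were found among the 20668 genes with an annotated mRNA in the RefSeq annotation of the pig genome Sscrofa11.1. CatSper sits in the membrane of the sperm tail. It opens when the inside of the cell becomes more alkaline, and the calcium that enters drives the vigorous tail beat of capacitated sperm. KCNU1 sets the membrane voltage at which CatSper works, while HVCN1 and SLC9C1 remove protons from the sperm cell.

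N6-methyladenosine (m6A) on mRNA was measured by MeRIP-seq in sperm of 3 Duroc boars. Sperm-rich ejaculates were divided, and 1 part was put into liquid nitrogen for RNA extraction (fresh sperm, Fs). The other part was cooled to 17 °C and then to 4 °C in an extender of lactose and egg yolk, was diluted further with an extender that held 6% glycerol and was frozen in straws (frozen-thawed sperm, Fts). RNA fragments of about 100 nucleotides were pulled down with an m6A antibody (IP), and stretches of mRNA with more IP reads than the input library of the same sample were called as peaks. Each peak carries a MACS score, 10 times -log10 of its p-value. A score is a measure of evidence that grows with the number of reads, not a level of methylation. The data are 1 peak list for each of the 3 Fs and 3 Fts IP samples, with 8015 to 11982 peaks. Read depth is not part of these lists. By the study's account the Fts IP libraries were all shallower in mapped reads than those of Fs. The input libraries of Fts1 and Fts2 were also shallower than every Fs input, while that of Fts3 was not. In every Fts library a smaller share of clean reads mapped than in the Fs libraries of the same kind. Scores and peak counts were thus not measured at equal depth, and the part of depth and mapping in the results below was not tested. A peak was counted for a gene when it shared at least 1 bp with an mRNA exon on the same strand. The samples are bulk RNA, so fewer cells of a type and less RNA per cell cannot be told apart, and a gene without a peak may lack the mark or the mRNA.

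The labelled cell type was checked against marker genes, with the limit that a peak needs both the mRNA and enrichment over input. Among 15 markers of sperm and late spermatids, 8 (53.3%) had a peak in any sample, beside 56.6% of all genes with an mRNA. These markers had 4, 3 and 5 peaks in Fs and 4, 7 and 6 in Fts. Of the small nuclear proteins of late spermatids, PRM1 and TNP1 had none, PRM2 had 1 in Fts2 and TNP2 had 1 in Fts3. ACR, the acrosomal protease, had 2 peaks in each Fs sample and 0 in Fts, and SPATA18 had 0 in Fs and 1 in each Fts sample. Among 9 markers of leukocytes and epithelium, 7 (77.8%) had a peak. The 9 markers together had 1, 4 and 4 peaks in Fs and 5, 6 and 7 in Fts. KRT8, a keratin of simple epithelia, had 0 peaks in Fs and 3, 4 and 2 in Fts. VIM, an intermediate filament protein, had 1 in each Fs sample and 0 in Fts. ACR, SPATA18, KRT8 and VIM were the only markers whose groups did not overlap. Of all genes with a peak, 5.36% had such an order with Fs higher and 8.98% with Fts higher. The study treated the sperm pellets with Triton X-100 against somatic cells before RNA extraction. The part of other cells in the results on the channel genes was not tested.

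Over the 6 samples, 8 of the 10 channel genes (80.0%) had at least 1 peak, against 56.6% of all genes with an mRNA. The lists held 40 peaks on them, 24 in Fs and 16 in Fts. Samples Fs1, Fs2 and Fs3 had 7, 10 and 7 peaks on the channel genes and samples Fts1, Fts2 and Fts3 had 4, 5 and 7, a mean of 8.0 ± 1.73 (SD, n = 3) against 5.33 ± 1.53. These values overlap at 7. The whole lists held 9576 ± 1352 peaks in Fs against 11058 ± 1215 in Fts, also with overlap. As a share of all peaks of a sample, the channel genes took 0.0873%, 0.0964% and 0.0677% in Fs and 0.0413%, 0.0434% and 0.0584% in Fts, without overlap. This share is not given for other gene lists or for a minimum score. With a score of at least 20 the channel genes had 3, 3 and 3 peaks in Fs and 2, 3 and 2 in Fts.

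Across the 8 channel genes with a peak, the median difference in peaks per sample (Fts minus Fs) was -0.33, and it was 0 across the 11704 genes with a peak. The mean was higher in Fs for 5 of the 8, higher in Fts for 2 and equal for 1, while over all genes it was higher in Fs for 5037, in Fts for 5224 and equal for 1443.

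The number of channel genes with a peak was 6, 7 and 5 in Fs and 2, 4 and 3 in Fts, so that each Fs sample lay above each Fts sample. Among all genes with an mRNA, those with a peak made up 25.4%, 30.9% and 30.5% in Fs and 26.8%, 29.7% and 31.7% in Fts, and the groups overlapped. The difference among the channel genes rested on peaks of low score. With a score of at least 20 (p of 0.01 or less), the genes numbered 2, 2 and 2 in Fs and 1, 3 and 2 in Fts. No test was run on these sums, because the genes were chosen with earlier results known.

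**Figure D1:**
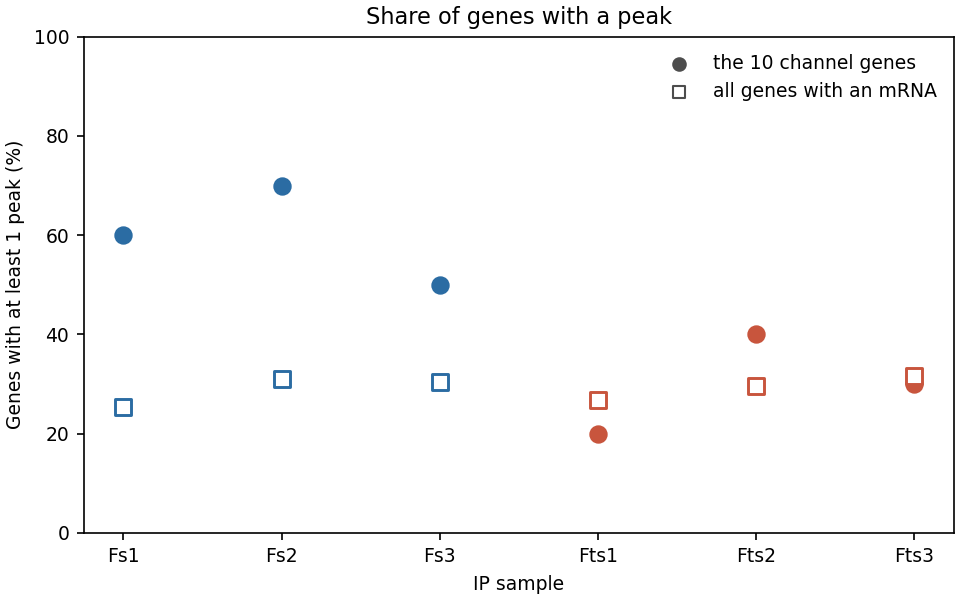
Percentage of genes with at least 1 m6A peak (vertical axis) in each of the 6 IP samples (horizontal axis). Filled circles are the 10 channel genes and open squares all 20668 genes with an mRNA, blue for Fs and red for Fts. The circles stand above the squares in the 3 Fs samples and on both sides of them in Fts.

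The pore-forming subunits CATSPER1 to CATSPER4 line the calcium pathway of the channel. CATSPER1 and CATSPER3 had a peak in at least 1 sample, beside 56.6% of all genes with an mRNA. Per kb of exon CATSPER3 had 2.24 peaks and CATSPER1 had 0.418, against a median of 0.931 over the genes with a peak. Samples Fs1, Fs2 and Fs3 had 1, 2 and 1 peaks on the 4 genes, and every Fts sample had 0. CATSPER2 and CATSPER4 had no peak in any sample. CATSPER1 had a single peak of 67 bp in exon 4 of 12, with a score of 24.8 in Fs2.

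CATSPER3 was the only channel gene whose peak counts did not overlap between the groups. It had 1 peak in each Fs sample and 0 in each Fts sample, a difference of -1.0 (exact two-sided sign-flip test over the pairs of equal number, p = 0.25, the lowest value that 3 pairs can give). Of all 11704 genes with a peak, 5.36% had every Fs sample above every Fts sample, and 1 of the 8 channel genes with a peak did so. The reverse held for 8.98% of all genes and for 0 channel genes. With 1 replicate number left out, HVCN1 (without replicate 1) and KCNU1 (without replicate 2) joined CATSPER3, and CATSPERB (without replicate 2) took the reverse order. Leaving samples out can only add genes with such an order. The shares over all genes given here are for 3 against 3 samples, and none is given for fewer. The CATSPER3 peak lay in the coding part of exon 2 of 8 and had low scores of 10.4, 4.73 and 13.25, so it passes a p-value of 0.05 only in Fs3. Of 29713 peak regions merged over the 6 samples, 3.71% had a peak in all 3 Fs samples and none in Fts, and 6.34% the reverse pattern. Regions found in only 1 sample (47.6%) or 2 samples (22.9%) are among them and cannot show either pattern. Exactly 3 samples had a peak at 4562 regions, as at this exon of CATSPER3. Of these 4562, 1103 had the CATSPER3 pattern and 1883 its reverse. The CATSPER3 region is shown because it is the most regular difference in presence among the channel genes. Its bases on the mRNA strand, at chr2:137142325-137142469 of Sscrofa11.1 on the plus strand, are printed from the 5′ end with matches to RRACH in capitals. RRACH, the sequence in which m6A is usually found, stands for A or G at the first and second place, then A, C, and A, C or T.

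CATSPER3 exon 2: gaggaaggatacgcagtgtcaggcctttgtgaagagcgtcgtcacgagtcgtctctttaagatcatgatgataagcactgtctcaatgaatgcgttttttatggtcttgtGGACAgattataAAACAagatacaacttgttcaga

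It holds 2 RRACH matches and no GGACT, a form of RRACH. Both were searched on the mRNA strand only. Among the 17095 peak regions at least as long, cut to the same length around their middle, 83.5% held RRACH and 13.6% GGACT. A match marks letters, not a methylated base.

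**Figure D2:**
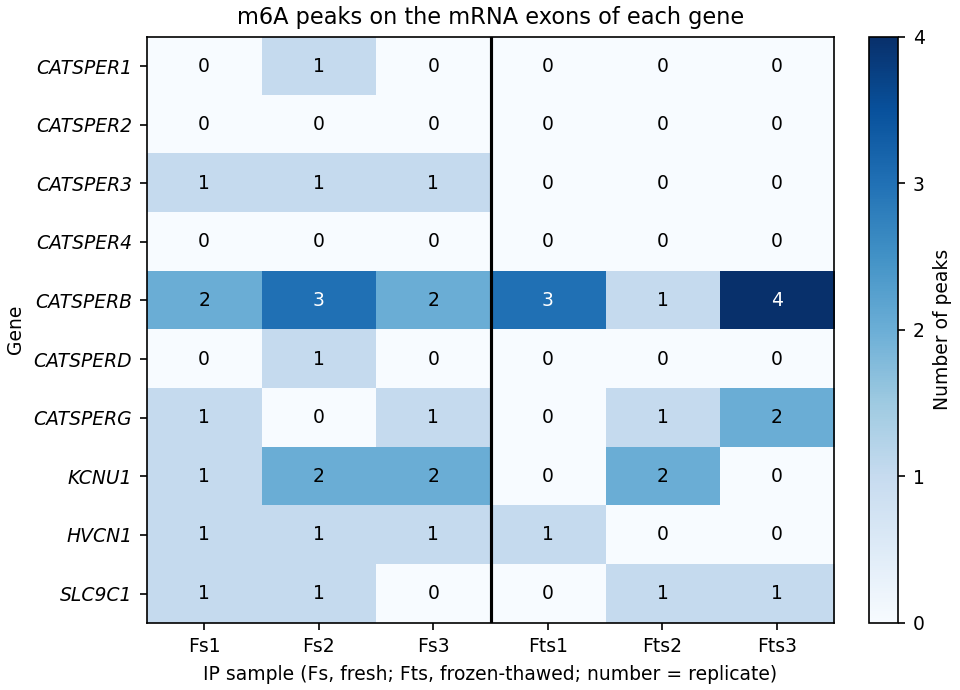
Number of m6A peaks on the mRNA exons of the 10 channel genes (rows) in the 3 Fs and 3 Fts samples (columns), printed in each cell and shaded from 0 to 4. CATSPERB has peaks in all 6 samples, CATSPER3 in the 3 Fs samples alone, and CATSPER2 and CATSPER4 in none.

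The auxiliary subunits CATSPERB, CATSPERD and CATSPERG are membrane proteins with large outer domains that cap the pore. They had 3, 4 and 3 peaks in Fs and 3, 2 and 6 in Fts. They carried 21 of the 40 peaks and all 10 peaks with a score of at least 50 (p of 1e-05 or less), 7 in Fs and 3 in Fts. Of all peaks in the 6 lists, 20.2% reached that score, against 25.0% of those on the channel genes. The latter lay only in exons 7 and 13 of CATSPERB and exon 2 of CATSPERG, each counted again in every sample where it reached the score. CATSPERD had none.

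CATSPERB had the most peaks, 2, 3 and 2 in Fs and 3, 1 and 4 in Fts. This makes 15 in all, more than 96.2% of the genes with a peak, and 4.24 peaks per kb of exon against a median of 0.931. The mean number differed by 0.33 between the groups, less than the spread between samples (exact two-sided sign-flip test, p = 1.0). Behind this count, 2 exons had opposite orders of the groups. The same 96 bp, exactly exon 7 of 26, were called in all 6 samples, with scores of 57.5, 187.1 and 30.7 in Fs and 350.2, 256.2 and 290.5 in Fts. The lowest Fts score lay above the highest Fs score.

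At exon 7 the score averaged 91.8 ± 83.6 (SD, n = 3) in Fs against 299 ± 47.6 in Fts, 207.2 higher. No test is given at either exon, because both were picked after their values were seen. Among the 1041 regions with a peak in all 6 samples, 12.7% had every Fts score above every Fs score and 21.9% the reverse. When each score was expressed as the percentage of peaks of the same sample with a lower score, exon 7 stood at 84.0%, 95.8% and 76.7% in Fs and at 96.0%, 92.0% and 95.2% in Fts. On that scale Fs2 lay above Fts2 and Fts3, and the groups overlapped.

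At exon 13 of CATSPERB the scores were higher in Fs. The peak covered the whole exon of 153 bp in the 3 Fs samples, with scores of 86.4, 149.5 and 80.4. In Fts1 it covered the same exon with a score of 36.8, in Fts3 only 14 bp of it with a score of 11.35, and Fts2 had no peak there. Every Fs score lay above the Fts scores. The pattern, with no peak taken as 0, was found in 18.5% of the 1306 regions with a peak in 5 of the 6 samples. A region that lacks its peak in an Fs sample cannot show it. The share among regions that lack it in an Fts sample, as exon 13 does, is not given. The order stayed the same by rank in the sample, with 89.5%, 94.5% and 90% in Fs and 74.3% and 45.3% in Fts1 and Fts3.

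The score of exon 7 minus that of exon 13 was -28.9 in Fs1, 37.5 in Fs2 and -49.7 in Fs3, against 313.4 in Fts1 and 279.2 in Fts3, while in Fts2 exon 7 alone had a peak. A difference of scores still grows with depth, and exon 13 is longer than exon 7. Their sequences are shown because these peaks were found in more samples than any other on the channel genes. Exon 7 lies at chr7:113263065-113263160 and exon 13 at chr7:113253955-113254107, both in the coding sequence and on the minus strand, and capitals mark RRACH.

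CATSPERB exon 7: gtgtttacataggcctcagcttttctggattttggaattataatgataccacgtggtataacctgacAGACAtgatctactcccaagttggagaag
CATSPERB exon 13: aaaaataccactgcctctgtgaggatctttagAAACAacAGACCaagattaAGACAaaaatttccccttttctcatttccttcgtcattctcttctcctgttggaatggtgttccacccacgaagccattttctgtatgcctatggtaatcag

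Exon 7 holds 1 RRACH match and exon 13 holds 3, and neither holds GGACT. Of the regions at least as long, 72.4% held RRACH in the central 96 bp and 84.7% in the central 153 bp. The share with GGACT was 9.28% and 14.3%. The other CATSPERB peaks were weaker. One in exon 20 was found in Fts1 and Fts3 with scores of 13.2 and 7.88, and it reached 41 bp past the annotated exon. A peak in exon 25 was found in Fs2 (score 4.25) and one in exon 2 in Fts3 (score 4.37).

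**Figure D3:**
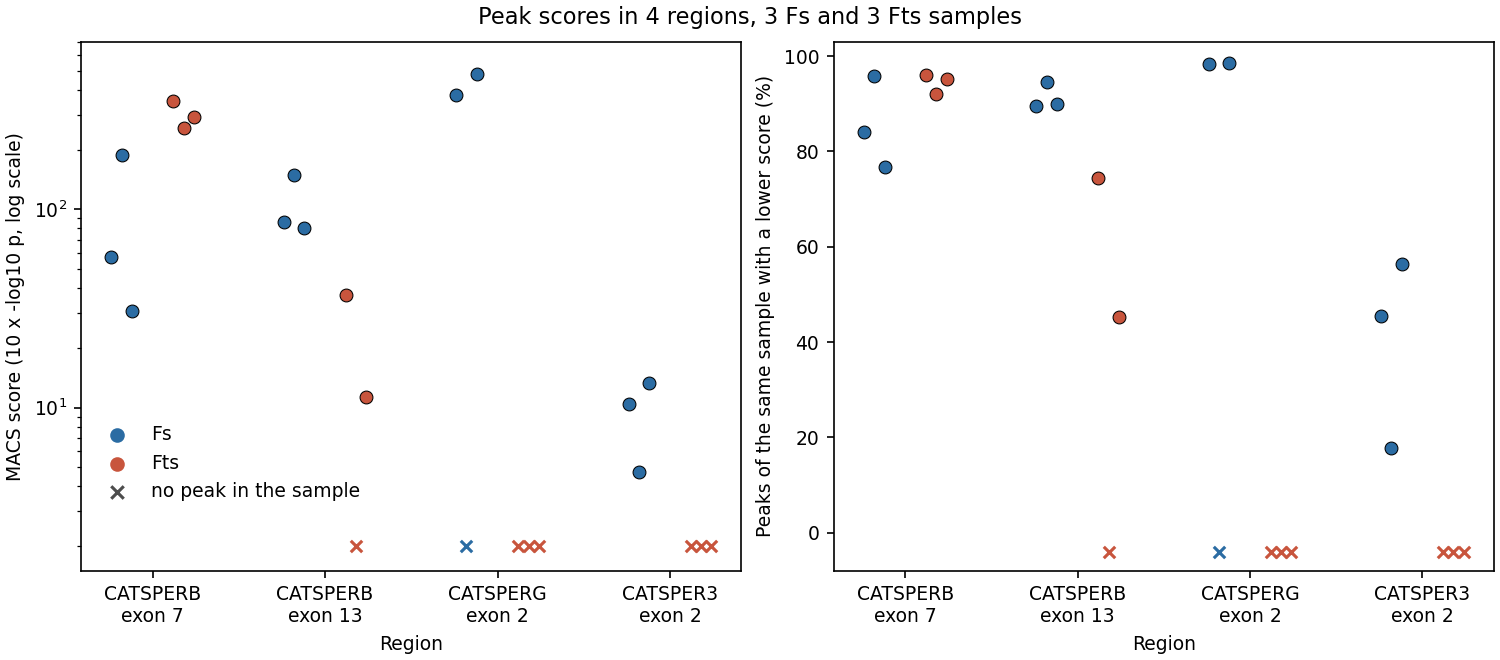
Scores of the peaks in 4 regions (left axis, 10 times -log10 p, log scale) and the percentage of peaks of the same sample with a lower score (right axis), with 1 point per sample, blue for Fs and red for Fts. Crosses mark samples with no peak and their height has no value. Exon 7 of CATSPERB is scored higher in Fts and exon 13 lower, while by percentage the groups overlap at exon 7. The exon 2 regions of CATSPERG and CATSPER3 have peaks in Fs alone.

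CATSPERG had 1, 0 and 1 peaks in Fs and 0, 1 and 2 in Fts, a mean difference of 0.33 within the spread between samples (exact two-sided sign-flip test, p = 1.0). The positions did not coincide. Fs1 and Fs3 had the same peak of 255 bp in exon 2 of 28, with scores of 375.25 and 484, the highest of all channel genes and above 98.2% and 98.6% of the peaks of their samples. It starts at the first base of the start codon. Fs2 and all 3 Fts samples had no peak there. In Fts the peaks were in exon 8, with scores of 4.10 in Fts2 and 22.2 in Fts3, and in exon 11, with 6.60 in Fts3. The exon 2 region is printed because it had the strongest peak and opens the coding sequence. It lies at chr6:47253308-47253562 on the plus strand, and capitals mark RRACH.

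CATSPERG exon 2: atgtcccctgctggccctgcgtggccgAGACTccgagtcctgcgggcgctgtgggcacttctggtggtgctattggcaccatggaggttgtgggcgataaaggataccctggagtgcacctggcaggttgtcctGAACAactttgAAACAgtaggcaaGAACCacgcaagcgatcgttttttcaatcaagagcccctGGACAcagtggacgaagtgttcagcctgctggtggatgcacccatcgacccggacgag

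It holds 5 RRACH matches and no GGACT, and 93.6% of the central 255 bp of the regions at least as long held RRACH and 22.4% GGACT. Its GC content was 58.0%, against 40.6% in exon 7 and 40.5% in exon 13 of CATSPERB and 41.4% in the CATSPER3 region. CATSPERD, an auxiliary subunit with a mRNA of 3298 nt, had a single peak, in exon 5 of 22 in Fs2, with a score of 11.7.

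KCNU1 (SLO3), HVCN1 and SLC9C1 together had 3, 4 and 3 peaks in Fs and 1, 3 and 1 in Fts. KCNU1, the pore of the alkaline-activated potassium channel of sperm, had 1, 2 and 2 peaks in Fs and 0, 2 and 0 in Fts. The difference of -1.0 was within the spread of the Fts samples (exact two-sided sign-flip test, p = 0.5). Fs2 and Fs3 shared a peak on the whole of exon 14 of 31, with scores of 11.7 and 16.8. Fs1 and Fs3 shared another with scores of 6.54 and 9.87, of which only 16 of 128 bp lay on an annotated exon. A peak on the whole of exon 23 was found in Fs2 with a score of 8.63 and in Fts2 with 5.33, and Fts2 had a further peak of 21 bp in exon 30 with a score of 24.0. No region of KCNU1 had a peak in more than 2 samples.

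HVCN1, the voltage-gated proton channel, was called once per Fs sample and 1, 0 and 0 times in Fts, a difference of -0.67 (exact two-sided sign-flip test, p = 0.5). In Fs1 and Fs3 the peak lay in exon 5 of 8, in the coding sequence, with scores of 4.47 and 9.38. In Fs2 and Fts1 it lay in the 3'UTR with scores of 3.49 and 6.16, where the gene TCTN1 is annotated on the other strand. All 4 scores are low, with p-values above 0.05. SLC9C1, the sodium and proton exchanger of the sperm tail, had 1, 1 and 0 peaks in Fs and 0, 1 and 1 in Fts, a difference of 0.00. Exon 4 of 30 had a peak of 5 bp in Fs1 (score 8.67) and of the whole 101 bp in Fts2 (score 23.0). The peaks in exon 3 in Fs2 (score 4.56) and in exon 21 in Fts3 (score 14.4) were each found once.

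**Figure D4:**
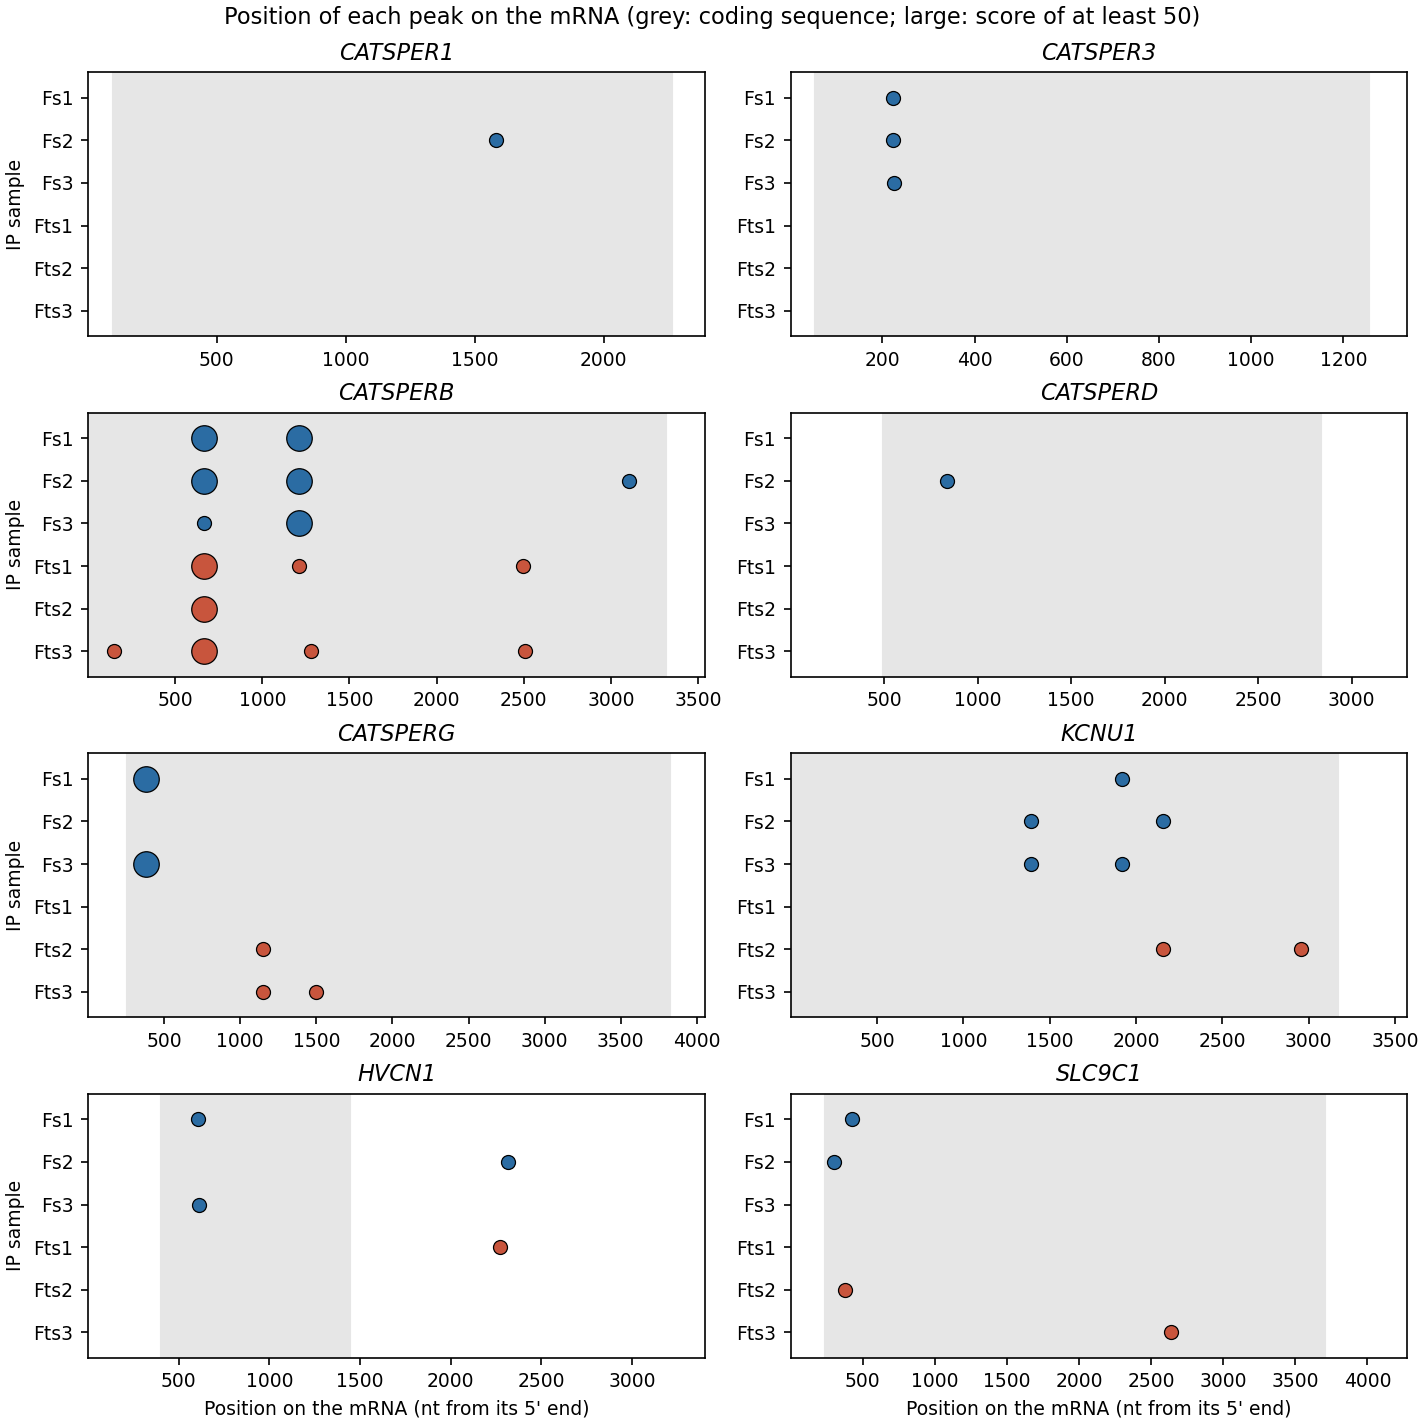
Position of each peak on the mRNA of the 8 channel genes with a peak (horizontal axis, nucleotides from the 5′ end, midpoint of the exonic part) in each sample (vertical axis), blue for Fs and red for Fts. Grey marks the coding sequence and large circles a score of at least 50, which only CATSPERB and CATSPERG reach. Only the exon 7 peak of CATSPERB stands in 1 line through all 6 samples.

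By midpoint, 35 of the 40 peaks (87.5%) lay in coding sequence more than 100 nt from the start and stop codons, against 67.4% of the peaks of all genes. This class takes up 72.2% of the length of the 8 mRNAs, and no such length share is given for all genes. The exon 2 peaks of CATSPERG, which begin at the start codon, fall in it by their midpoint. The 3'UTR held 2 peaks, the start codon class 1, and the stop codon class and the 5'UTR 0. The last 2 had their midpoint off the exons of the longest transcript. The coding share averaged 83.8% ± 3.30 (SD, n = 3) in Fs against 91.7% ± 14.4 in Fts, and the 7.86 points between them lay within the spread of the Fts samples. Over all genes it was 64.4% ± 0.721 in Fs and 70.0% ± 0.493 in Fts. The level on the channel genes depended on the width of the codon classes. With classes of 200 nt it averaged 56.7% in Fs and 80.2% in Fts, and no share over all genes is given at that width. Of the 40 peaks, 18 (45%) covered an exon from end to end, as did 44.8% of the peaks of all genes. The peaks were 5 to 936 bp long, with a median of 142.5 bp against 171 bp over all peaks. RRACH was present in 31 of the 40, where an exon with a peak in several samples counts each time. No share over all peaks of like length is given beside this count. None overlapped an exon of another gene on the same strand.

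The 40 peaks fell into 20 regions, of which 8 (40%) had a peak in 1 sample and 9 (45%) in 2 samples. Over all 29713 regions merged from the 6 lists these shares were 47.6% and 22.9%. Exon 2 of CATSPER3 was found in 3 samples, exon 13 of CATSPERB in 5 and exon 7 in 6. Regions found in all 6 samples made up 5.00% here (1 region) and 3.50% of all regions. A peak in Fs alone was found in 9 regions (45%), in Fts alone in 6 (30%) and in both in 5 (25.0%). Over all 29713 regions these shares were 34.0%, 42.3% and 23.8%. The median score of the 40 peaks was 12.5, and 12.6 over all peaks. A p-value above 0.05 by their score held for 20 of the 40, while in the full lists it held for 45.1% to 55.6% of the peaks of a sample.

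Further genes of the same pathway were taken from a list of accessory CatSper proteins and of proteins for bicarbonate, proton and calcium transport. Of 6 accessory genes in the annotation, 3 had a peak. CATSPERE, another auxiliary subunit, was called once per Fs sample and 0, 0 and 1 times in Fts, while CATSPERZ and C2CD6 had equal means in the groups. None of the 3 had groups without overlap. Of 13 partner genes in the annotation, 10 had a peak, with 6, 11 and 13 peaks in Fs and 13, 11 and 19 in Fts. In 2 of them every Fts sample lay above every Fs sample, beside the 8.98% of all genes, and in 0 the reverse. They were SLC9B1, a sodium and proton exchanger of the sperm tail, with 1 peak per Fs sample against 3, 3 and 4 in Fts, and ABHD2, the lipid hydrolase through which progesterone opens CatSper in human sperm, with 0 in each Fs sample and 1, 2 and 2 in Fts. For SLC9B1 the mean differed by 2.33 and for ABHD2 by 1.67 (exact two-sided sign-flip test, p = 0.25 for each). ADCY10, the bicarbonate-activated adenylyl cyclase of sperm, had the most peaks of the list, 3, 5 and 4 in Fs and 5, 3 and 7 in Fts, with overlap. SLC26A8, an anion transporter of the sperm tail, had 0, 1 and 3 peaks in Fs and 2, 2 and 1 in Fts.

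For the 2 channel genes with the most peaks, the genes with the nearest profile were taken from all genes with a peak. The profile was log2 of 1 plus the summed score in each of the 6 samples, and likeness was the Euclidean distance. For CATSPERB they were MYO9B at a distance of 0.96, ITGA1 at 1.02 and PAM at 1.27. For KCNU1 they were RMND5A at 0.76, RFX3 at 0.78 and ECM2 at 1.17, each with no peak in Fts1 and Fts3 and a peak in the other 4 samples.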

How the data were processed

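m6A peaks were measured in 3 Fs and 3 Fts IP samples, and the 6 input samples served the authors as the reference of the peak calls. Per the labels and the study's methods, the authors trimmed reads with cutadapt (v1.9.3), aligned them to susScr11 with Hisat2, called peaks in each sample with MACS against its own input and kept the peaks on mRNAs. The deposited score is 10 times -log10 of the MACS p-value. Peak lists went down to scores of about 3, and many peaks end at exon ends. A further deposited list holds only the authors' comparison of Fts with Fs and was not used. Read depth is not part of the files, so no interval from counts is given. The mapped reads that the study lists were not used.

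Exons came from RefSeq (Annotation Release 106 of Sscrofa11.1, which UCSC names susScr11), after chromosome names were matched and peak ends checked against chromosome lengths. Transcript classes were set by where a peak's midpoint fell on the transcript with the longest coding sequence, with codon classes of 100 nt to each side. Peak regions were merged over the 6 lists on the same strand. All channel genes are named. Of the pathway list, the genes without overlap of the groups and the 3 with the most peaks are named, and for the 2 channel genes with the most peaks the 3 nearest profiles. CATSPERB exons, region scores and ranks were chosen after the values were seen, as were the sequences shown, which are regions with a peak in every sample of a group or a score of at least 100. The genes and lists were chosen with earlier results of these data known.

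Peaks per gene were compared by an exact sign-flip test (two-sided) of the samples with equal number, since the study states a paired design, which with 3 pairs cannot go below an exact p of 0.25. The p-values are unadjusted (adjustment over all genes could only raise them). They reflect how far the 3 differences between equally numbered samples agree in sign and size, not the spread within a group. Nothing in the labels ties a number to a boar, so they cannot be read as a comparison within boars. The code (Python 3.11.15, numpy 2.4.6) was tested on simulated peak lists. Alternatives were a minimum score of 20 or 50, 0.5 of the peak on exons, peaks joined across exon junctions, strand ignored, codon classes of 200 nt, any coding overlap, no pairs and the omission of each replicate number.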

Additional observations from a re-analysis of the deposited data

How the results depend on the processing

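The number of channel genes with a peak (Fts minus Fs, -3.00 genes) moved to 0.00 with a minimum score of 20 and to -0.67 with 50, and lay between -3.50 and -2.50 when each replicate number was left out. The number of channel genes with higher counts in every Fs sample (1, CATSPER3) was 0 with either minimum score, and between 1 and 2 with a replicate number left out, since HVCN1 joined without replicate 1 and KCNU1 without replicate 2. The number with higher counts in every Fts sample (0) was between 0 and 1, since CATSPERB joined without replicate 2. Omission of a replicate number can only add such genes, and no share over all genes is given beside these counts on fewer samples. The difference in peaks stayed below 0 under every alternative, from -4.0 to -0.67. The coding share (7.86 percentage points) was 23.6 with codon classes of 200 nt, 0.00 with either minimum score, -1.67 with 0.5 of the peak on exons, -5.00 with any coding overlap, 17.1 without replicate 1, 1.79 without replicate 2 and 4.64 without replicate 3, so its size and sign depended on these choices. Of single genes, CATSPERB (0.33 peaks) was at -0.67 with either minimum score and between -0.50 (without replicate 3) and 1.5 (without replicate 2) with a number left out, CATSPERG (0.33) at -0.33 with a score of 20, -0.67 with 50, 1.0 without replicate 1 and 0.00 without replicate 2 or 3, and KCNU1 (-1.0) at 0.33 with 20, 0.00 with 50, -0.33 with 0.5 of the peak on exons, -1.5 without replicate 2 and -0.50 without replicate 3. The study divided each ejaculate, but the labels do not tie a number to a boar, and no common deviation of equally numbered samples was seen in these sparse counts (correlation of deviations over genes from -0.017 to 0.0036), so the pairing by number is not established. With no replicate block, CATSPER3 (-1.0) gave p = 0.1 and every other channel gene p of 0.4 or more (two-sided exact permutation of 3 against 3). Joining peaks across exon junctions or ignoring strand changed none of these values for the channel genes, and the coding share was not computed for joined peaks. Scores near the lower end of the lists and 3 samples a group limit what the counts can show.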
